A study of Mus musculus with 5 samples.

Results

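The neural crest specifier genes described here are 9 genes that were picked by symbol: Sox10, Foxd3, Tfap2a, Tfap2b, Ets1, Snai1, Snai2, Sox9 and Erbb3. All 9 were found among the 23284 genes counted in neural tubes of mouse embryos, and all 9 were among the 12703 genes with more than 1 CPM (reads of a gene scaled to the library total) in at least 2 samples, which were tested. The study asked what loss of the erythropoietin receptor (EpoR, gene Epor) does to transcription in uncultured neural tissue. PolyA RNA was sequenced from 2 EpoR-null (EpoR -/-), 2 wild type (EpoR +/+) and 1 heterozygous (EpoR +/-) sample of neural tubes, labelled E8.5, although the study's text gives a slightly later age. The embryos came from matings of EpoR+/- mice, the receptor was lost from the whole embryo rather than from the neural tube alone, and the controls of the study are the wild type and the heterozygous samples together. Strain, sex and the number of embryos in a sample are not given in the sources used here, so the p-values measure the spread between these samples.

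The neural crest is a population of cells that arises at the border of the neural plate, leaves the dorsal neural tube by an epithelial to mesenchymal transition and migrates to form peripheral neurons, glia, pigment cells and much of the skeleton of the face. Signals such as BMP and WNT first set up border genes of the Pax, Msx and Zic families. The specifier genes then act within the premigratory and early migrating crest, where the SoxE, Fox, AP-2, Ets and Snail transcription factors are expressed together, and Erbb3 is a receptor for neuregulins on migrating crest and its glial derivatives. Several of the 9 genes also work outside the crest, such as Ets1 in endothelium, Snai1 in mesoderm and Sox9 in neural progenitors.

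No specifier gene passed the test between EpoR-null and control samples. All 9 had a higher mean in the EpoR-null samples, by log2 fold changes of 0.06 to 0.86, but every 95% interval included 0. The feature that stood out was the heterozygous sample. There 8 of the 9 genes had their lowest level, against 16.9% of tested genes. In it 6 of the 9 lay below 0.5 of the lower wild type sample, against 3.35% of tested genes. So did all 8 endothelial, all 7 erythroid and 7 of 8 somite markers tested. The EpoR-null samples also differed from each other, with 8 of the 9 genes higher in EpoR-null 1, against 50.8% of all tested genes, and Foxd3 higher in EpoR-null 2.

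Depth was sufficient to count every specifier gene in every sample. Between 19316126 and 41169218 reads were assigned to genes, so that 3 reads were worth 0.0729 to 0.155 CPM. The 9 genes had between 10 reads (Snai2 in the heterozygote) and 3458 reads (Ets1 in wild type 2). The targeted gene Epor was at 2.35 and 1.62 CPM in the wild type samples, 0.476 CPM in the heterozygote and 0.354 and 0.669 CPM in the EpoR-null samples. The heterozygote lay between the EpoR-null samples. The difference of Epor between EpoR-null and the 3 controls did not pass the test (log2 fold change -1.51 ± 0.76 SE, FDR = 0.280), nor did that against the wild types alone (log2 fold change -1.91 ± 0.58 SE, FDR = 0.0528).

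The heterozygous sample stood apart in markers of other tissues. All 8 endothelial markers tested were below 0.5 of the lower wild type, and their summed level was 12.97 CPM against 190 and 300.1 CPM in the wild types and 262 and 144 CPM in the EpoR-null samples. The 7 erythroid markers tested were also all below 0.5 of the lower wild type, with a sum of 44.2 CPM against 1092 and 603 CPM in the wild types and 1693 and 966 CPM in the EpoR-null samples. Of the erythroid list, Hba-a1 had no read in any sample. Of 8 somite and mesoderm markers tested, 7 were below 0.5 of the lower wild type, and the sum was 9.12 CPM against 47.3 and 44.1 CPM in the wild types and 93.1 and 31.5 CPM in the EpoR-null samples. The defining muscle marker Myf5 had at most 2 reads in any sample. Neural progenitor markers, which define the labelled tissue, were present in every sample, with sums of 1496 and 1505 CPM in the wild types, 1715 CPM in the heterozygote and 1510 and 1350 CPM in the EpoR-null samples. None of these 8 progenitor markers was below 0.5 of the lower wild type in the heterozygote. Each result on the specifier genes is therefore given with and without the heterozygote. The part of these other tissues in those results was not tested.

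**Figure D1:**
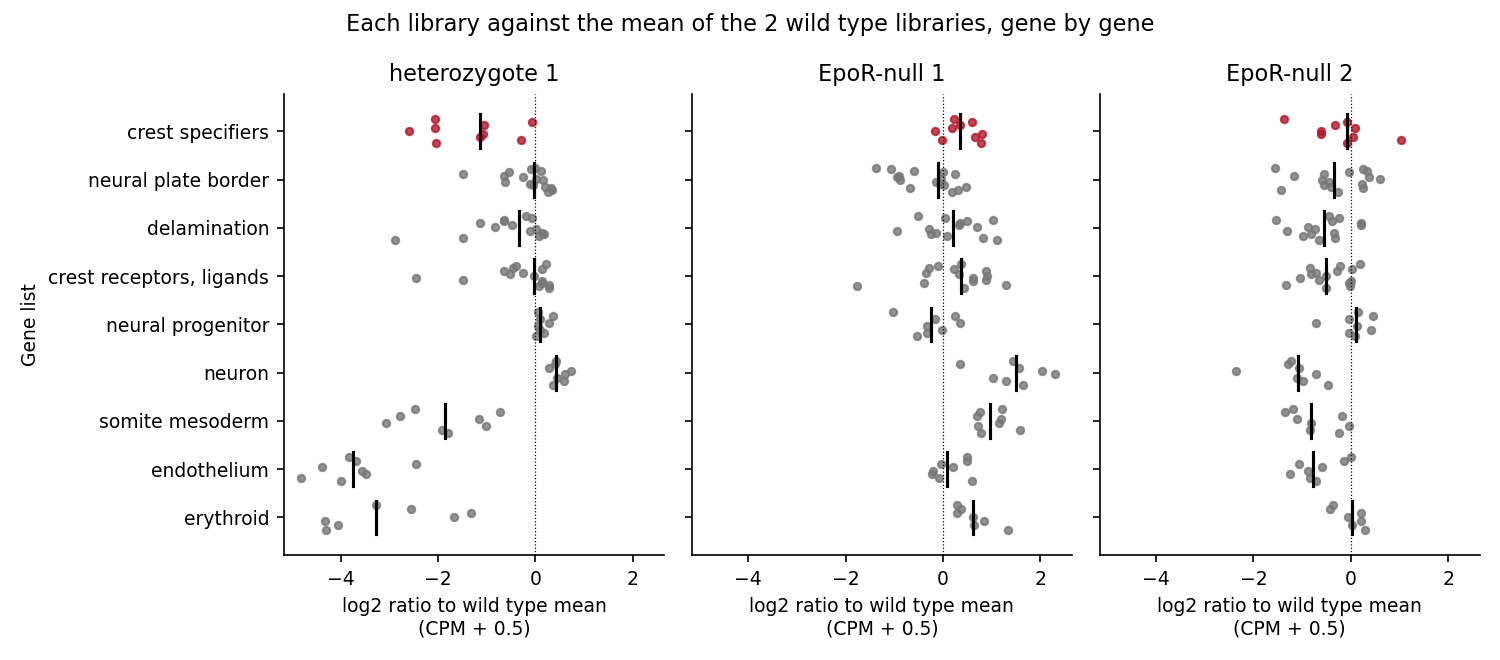
log2 ratio of CPM + 0.5 to the mean of the wild type samples (horizontal axis) for the tested genes of 9 lists (rows), in the heterozygote, EpoR-null 1 and EpoR-null 2 (panels). Points are genes, red for the specifier genes, and black bars are list medians. In the heterozygote the medians are -1.14 for the specifier genes, -3.75 for endothelium and 0.10 for neural progenitors.

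Levels of different genes were compared per kilobase of the longest annotated transcript. In the wild type samples Ets1 had the highest mean level, at 15.8 CPM per kb, followed by Sox9 at 10.2, Sox10 at 6.40, Snai1 at 4.398, Tfap2b at 3.92, Foxd3 at 2.52, Tfap2a at 1.78, Erbb3 at 1.43 and Snai2 at 0.715 CPM per kb. Among neighbours in this order, the wild type samples overlapped for Snai1 and Tfap2b, for Tfap2b and Foxd3, and for Tfap2a and Erbb3. In the heterozygote the order differed, with Sox9 at 9.71 CPM per kb above Ets1 at 2.53 and Foxd3 at 2.03 CPM per kb.

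**Figure D2:**
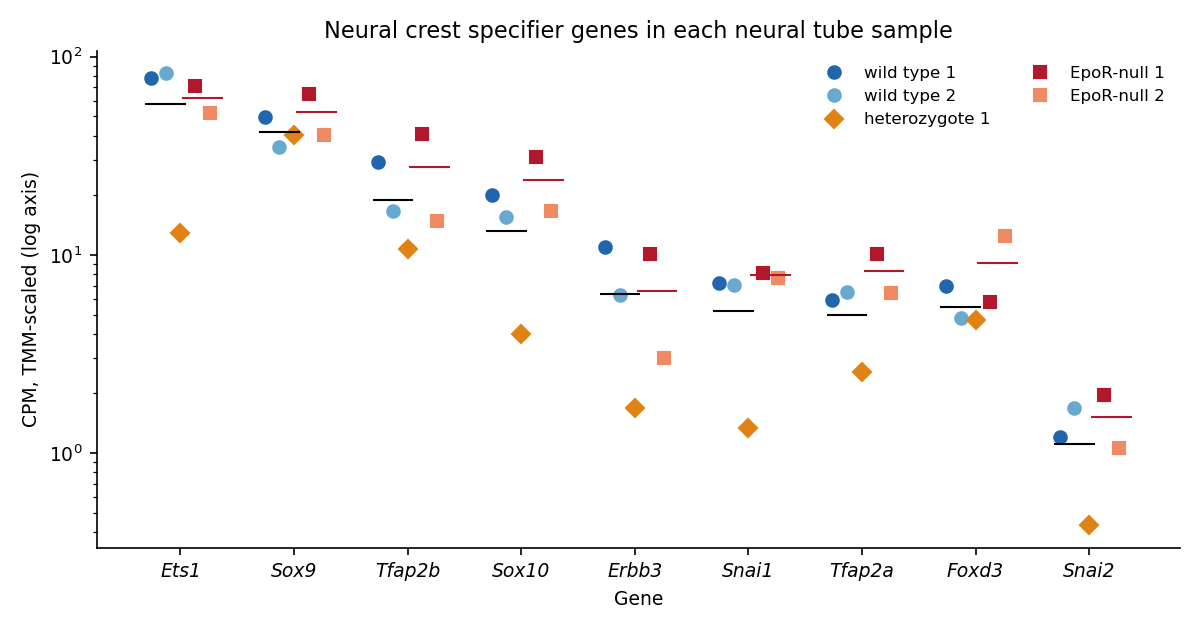
CPM (TMM-scaled, log axis) of each specifier gene in the 5 samples. Points are samples, black lines the mean of the 3 controls and red lines the mean of the 2 EpoR-null samples. The heterozygote is the lowest point for 8 of the 9 genes, all but Sox9.

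The SoxE factors Sox9 and Sox10 act in turn, Sox9 in early crest induction and survival and Sox10 in migrating crest and its glial and pigment derivatives. Sox10 was at 20.0 and 15.6 CPM in wild type 1 and 2, 3.98 CPM in the heterozygote and 31.1 and 16.7 CPM in EpoR-null 1 and 2. EpoR-null 2 lay between the wild type samples, EpoR-null 1 above them and the heterozygote far below, where the 95% exact Poisson interval, which covers counting error only, was 3.21 to 4.88 CPM. The mean was 13.2 ± 8.27 CPM in controls (SD, n = 3) and 23.9 ± 10.2 CPM in EpoR-null samples (SD, n = 2). The log2 fold change was 0.86 ± 0.69 SE, with a 95% interval of -0.49 to 2.20 (FDR = 0.512). Without the heterozygote it was 0.43, with an interval of -0.36 to 1.21 (FDR = 0.752).

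With the heterozygote included, Sox9 was the steadiest of the specifier genes. It was at 49.5 and 35.2 CPM in the wild types, 40.2 CPM in the heterozygote and 64.6 and 40.2 CPM in the EpoR-null samples. The groups overlapped, and the heterozygote lay within the wild type range. Its log2 fold change was 0.33, with a 95% interval of -0.21 to 0.88 (FDR = 0.537), and it was 0.31 without the heterozygote (FDR = 0.797). The biological coefficient of variation that edgeR estimated was 0.208 for Sox9 and 0.520 for Sox10, against a median of 0.171 over all tested genes. Without the heterozygote it was 0.235 for Sox9 and 0.274 for Sox10. Ets1 at 0.163 and Snai1 at 0.222 were then below Sox9. The ratio of Sox9 to Sox10 in CPM was 2.47 and 2.26 in the wild types, 10.1 in the heterozygote, with EpoR-null samples at 2.08 and 2.41. In the heterozygote, Sox10 was low and Sox9 was not.

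Foxd3 encodes a forkhead repressor that maintains crest progenitors and is among the earliest specifier genes. It was at 6.94 and 4.79 CPM in the wild types, 4.71 CPM in the heterozygote and 5.76 and 12.5 CPM in the EpoR-null samples. EpoR-null 2 was above every other sample, whereas EpoR-null 1 lay between the wild types and the heterozygote was close to the lower wild type. For Foxd3 the log2 fold change was 0.74, with a 95% interval of -0.16 to 1.64 (FDR = 0.372), and without the heterozygote it was 0.64, with an interval of -0.38 to 1.67 (FDR = 0.702). Without EpoR-null 1, Foxd3 was higher by 1.19 (FDR = 0.0111) but still missed the p threshold, and without EpoR-null 2 the difference was 0.07. The value therefore rested on EpoR-null 2.

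The promoter of Foxd3 is shown because, of the other specifier genes, its pattern over the samples was least like that of Sox10, as measured below. It is set next to that of Snai1, the only specifier gene whose EpoR-null samples both lay above all controls. The 250 bases before the RefSeq start were read from the GRCm38.p6 assembly, for Foxd3 at chr4:99656049-99656298 and for Snai1 at chr2:167537945-167538194, both on the plus strand. Capitals mark matches, on either strand, to GCCNNNGGC for AP-2, ACAAAG for SOX and CAGGTG for the Snail E-box, motifs of the factor families to which the specifier genes belong.
Foxd3: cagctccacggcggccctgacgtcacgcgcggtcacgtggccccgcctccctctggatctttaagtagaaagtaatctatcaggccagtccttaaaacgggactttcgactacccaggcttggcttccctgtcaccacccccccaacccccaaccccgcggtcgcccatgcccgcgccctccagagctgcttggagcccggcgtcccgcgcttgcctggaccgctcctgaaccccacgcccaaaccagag
Snai1: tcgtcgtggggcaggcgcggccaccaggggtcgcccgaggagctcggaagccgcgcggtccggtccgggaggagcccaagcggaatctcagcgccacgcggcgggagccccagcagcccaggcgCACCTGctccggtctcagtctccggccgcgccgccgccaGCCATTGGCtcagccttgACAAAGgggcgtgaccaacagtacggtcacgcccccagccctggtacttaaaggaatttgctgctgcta
The Snai1 window held 1 match to each motif, with the E-box 126, the AP-2 motif 87 and the SOX motif 69 bases before the start. The Foxd3 window held none, and neither did the windows of Tfap2b and Tfap2a. Of all 32851 RefSeq windows of this length, 13.7% held the AP-2, 16.5% the SOX and 17.2% the E-box letters, and none of the matches overlapped another. A match of letters is a description and not evidence of binding.

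Tfap2a and Tfap2b encode AP-2 factors, of which Tfap2a acts from the neural plate border onward and is also expressed in surface ectoderm. Tfap2a was at 5.91 and 6.50 CPM in the wild types, 2.55 CPM in the heterozygote and 10.2 and 6.44 CPM in the EpoR-null samples. Only EpoR-null 1 was above the wild types, and EpoR-null 2 lay between them. The log2 fold change was 0.73, with a 95% interval of -0.28 to 1.74 (FDR = 0.446), or 0.41 without the heterozygote (FDR = 0.767). The summed surface ectoderm markers were at 16.1 and 27.4 CPM in the wild types, 5.97 CPM in the heterozygote and 16.7 and 36.2 CPM in the EpoR-null samples, with Krt19 at 0 in the heterozygote. The part of surface ectoderm in the level of Tfap2a was not tested.

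Tfap2b was at 29.3 and 16.7 CPM in the wild types, 10.7 CPM in the heterozygote and 40.7 and 14.9 CPM in the EpoR-null samples. The EpoR-null samples lay on either side of the wild types, 2.73-fold apart. Its log2 fold change was 0.56, with a 95% interval of -0.59 to 1.70 (FDR = 0.638), and 0.27 without the heterozygote (FDR = 0.910). It turned to -0.34 without EpoR-null 1.

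Snai1 and Snai2 encode zinc finger repressors of cadherin genes in the epithelial to mesenchymal transition. Mouse Snai1 is expressed strongly in mesoderm as well. Snai1 was at 7.23 and 7.03 CPM in the wild types, 1.34 CPM in the heterozygote and 8.13 and 7.61 CPM in the EpoR-null samples. Both EpoR-null samples were above all 3 controls, which was also the case for 21.2% of all tested genes, while 22.1% of tested genes and none of the specifier genes had both EpoR-null samples below all controls. Snai1 had a log2 fold change of 0.59, with a 95% interval of -0.81 to 1.999 (FDR = 0.682). Without the heterozygote it was 0.14, with an interval of -0.52 to 0.80 (FDR = 0.927), so most of the mean difference came with the heterozygous sample.

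Snai2 was the lowest of the 9, with 10 to 71 reads per sample. It was at 1.198 and 1.69 CPM in the wild types, 0.432 CPM in the heterozygote and 1.97 and 1.06 CPM in the EpoR-null samples, which lay on either side of the wild types. Its log2 fold change was 0.42, with a 95% interval of -0.88 to 1.73 (FDR = 0.772), and 0.04 without the heterozygote (FDR = 0.994). It was -0.09 without EpoR-null 1.

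Ets1 encodes an Ets factor of cranial crest delamination that is also expressed in endothelium and blood progenitors. It was at 77.8 and 82.4 CPM in the wild types, 12.8 CPM in the heterozygote and 71.4 and 51.9 CPM in the EpoR-null samples. Ets1 was the only specifier gene with both EpoR-null samples below both wild types, and the heterozygote was lower by far. For Ets1 the log2 fold change was 0.10, with a 95% interval of -1.34 to 1.54 (FDR = 0.958). Without the heterozygote its direction turned, to -0.38 with an interval of -0.84 to 0.09 (FDR = 0.563). It was also negative without EpoR-null 1, at -0.16. The summed endothelial markers had the same order of samples at the low end, with the heterozygote lowest and EpoR-null 2 next, and their part in the level of Ets1 was not tested.

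Erbb3 varied most. It was at 10.99 and 6.27 CPM in the wild types, 1.69 CPM in the heterozygote and 10.2 and 3.03 CPM in the EpoR-null samples. EpoR-null 1 lay between the wild types and EpoR-null 2 below both. The log2 fold change was 0.06, with a 95% interval of -1.63 to 1.75 (FDR = 0.973), and it turned to -0.39 without the heterozygote, with an interval of -1.74 to 0.96 (FDR = 0.889). Without EpoR-null 1 it was -1.06. Its biological coefficient of variation was the highest of the 9, at 0.648, and was also the highest without the heterozygote, at 0.473.

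Over the whole list, 0 of the 9 genes passed the call rule of p below 0.001 and FDR below 0.05 in edgeR's exact test, against 3.84% of all tested genes called lower and 0.929% called higher. None reached an unadjusted p of 0.05, which 19.8% of tested genes did, and none passed at an FDR below 0.05 alone, which 7.31% did. The count at an unadjusted p of 0.05 was also 0 with the quasi-likelihood test and with DESeq2. Among all 12703 tested genes, 3052 and 3141 reached that level in these tests. Leaving out EpoR-null 1 or 2 keeps 1 EpoR-null sample, so no such count of specifier genes is given for those fits. Against the wild types alone, 2% of 12628 tested genes and 0 of the 9 were called. The median log2 fold change of the specifier genes was 0.56 against 0.06 for all tested genes, and the number above 0 was 9 of 9 against 56.2% of tested genes. Without the heterozygote the median was 0.27 and 7 of 9 were above 0, against 0.05 and 54.8% of tested genes. With the heterozygote in the fit, the median biological coefficient of variation was 0.476 for the 9 genes and 0.171 for all tested genes. That is the spread against which the differences from the 3 controls were read. Without the heterozygote, the values of the 9 genes ran from 0.163 for Ets1 to 0.473 for Erbb3.

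**Figure D3:**
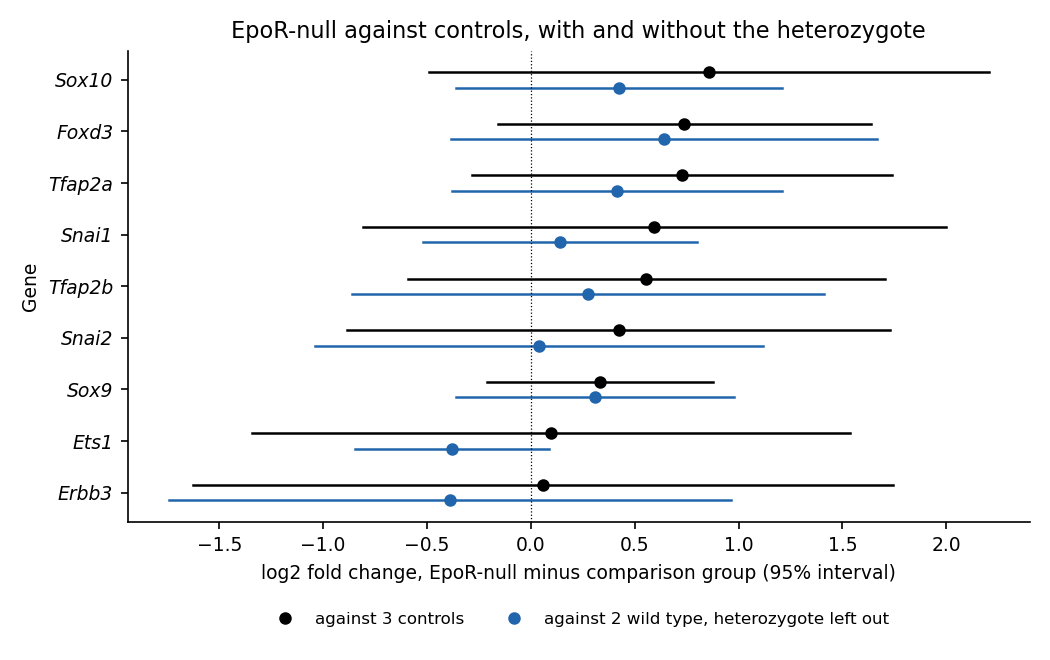
log2 fold change of each specifier gene between EpoR-null samples and controls, with 95% intervals, with the heterozygote among the controls and without it. Every interval includes 0, and Ets1 and Erbb3 lie on the other side of 0 without the heterozygote.

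In the heterozygote, Sox10, Tfap2a, Ets1, Snai1, Snai2 and Erbb3 were below 0.5 of the lower wild type sample, that is 6 of 9, against 3.35% of all tested genes. None was above 2 times the higher wild type, as were 0.0551% of tested genes. The mean of the wild types was 6.24 times the heterozygote's level for Ets1, 5.32 times for Snai1, 5.12 times for Erbb3, 4.47 times for Sox10, 3.34 times for Snai2, 2.43 times for Tfap2a and 2.14 times for Tfap2b. It was 1.24 times for Foxd3 and 1.05 times for Sox9, so that these were close to the wild types. The heterozygote was the lowest of the 5 samples for 8 of 9 specifier genes, against 16.9% of tested genes, with Sox9 the exception. With 1 heterozygous sample there is no replicate check of these values. In such bulk RNA, fewer crest cells in a sample and less of an RNA per cell cannot be told apart.

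Genes that set up the neural plate border were near wild type level in the heterozygote. Their median log2 ratio to the wild type mean was -0.02, against -1.14 for the specifier genes and 0.01 for all tested genes. Chosen after their values were seen, Pax3, a paired box factor of the dorsal neural tube, was at 78.8 and 65.6 CPM in the wild types and 86.7 CPM in the heterozygote, and the roof plate ligand Wnt1 was at 23.2 and 26.2 CPM in the wild types and 26.7 CPM in the heterozygote. Crest receptors and ligands had a median of -0.02, with 2 of 15 below 0.5 of the lower wild type. Genes of delamination had a median of -0.34, with 2 of 14 below it, and other crest factors a median of -0.05, with 3 of 16. Chosen after their values were seen, Twist1 and Prrx1 were low members of these lists, whereas Zeb1 and Zeb2 of the delamination list were not. Twist1 was at 14.96 and 12.4 CPM in the wild types and 1.43 CPM in the heterozygote, and Prrx1 at 10.7 and 5.10 CPM against 0.562 CPM. Zeb1 was at 80.3 and 68.5 CPM in the wild types and 78.9 CPM in the heterozygote, and Zeb2 at 115 and 102 CPM against 123 CPM. Neuron markers were somewhat higher in the heterozygote, with a median log2 ratio of 0.43 to the wild type mean.

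Between the EpoR-null samples, 3 of 9 specifier genes differed by more than 2-fold, against 10.9% of tested genes. Erbb3 was 3.35 times and Tfap2b 2.73 times higher in EpoR-null 1, whereas Foxd3 was 2.16 times higher in EpoR-null 2. Sox10, Snai2, Sox9, Tfap2a and Ets1 were 1.38 to 1.86 times higher in EpoR-null 1, and Snai1 was about equal, at 1.07 times. The summed neuron markers were at 1128 CPM in EpoR-null 1 and 220 CPM in EpoR-null 2, against 480 and 334 CPM in the wild types. The somite markers were at 93.1 and 31.5 CPM in EpoR-null 1 and 2. Like 8 of the 9 specifier genes, these sums were higher in EpoR-null 1. In the heterozygote, neuron markers went the other way, with a median log2 ratio to wild type of 0.43 against -1.14 for the specifier genes. All 8 neuron, 8 somite, 8 endothelial and 7 erythroid markers tested were higher in EpoR-null 1, against 50.8% of all tested genes. The same held for 13 of 14 delamination genes and 13 of 15 crest receptors and ligands, but for 1 of 8 neural progenitor markers. Nearer the share of all tested genes, 11 of 16 other crest factors, 9 of 16 neural plate border genes and 4 of 7 paralogs were higher in EpoR-null 1. None of the 3 surface ectoderm markers tested was higher there (sums of 16.7 and 36.2 CPM), and none of the 4 notochord markers (53.9 and 85.0 CPM). The part of these tissues in the difference was not tested.

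**Figure D4:**
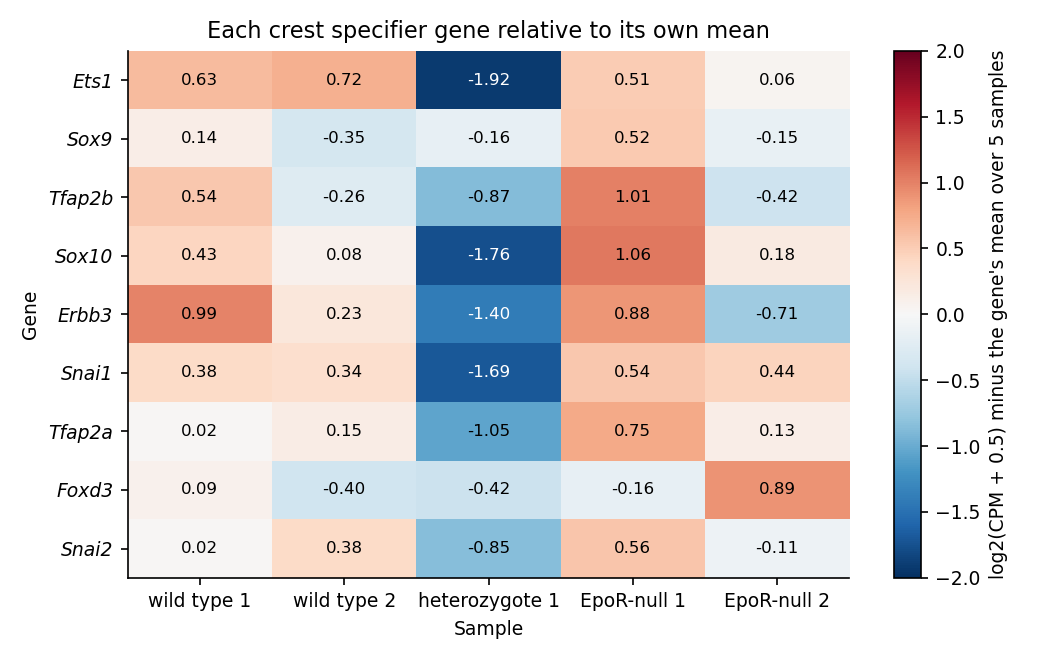
log2(CPM + 0.5) of each specifier gene minus its mean over the 5 samples, as a coloured and numbered grid of genes by samples. The heterozygote column is lowest for all genes but Sox9, at -1.92 for Ets1, and EpoR-null 2 is highest for Foxd3, at 0.89.

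Pairs of related specifier genes were set against each other within each sample. The ratio of Tfap2b to Tfap2a was 4.96 and 2.57 in the wild types, 4.203 in the heterozygote, with EpoR-null samples at 4.01 and 2.31. The ratio of Snai2 to Snai1 was 0.166 and 0.241 in the wild types, 0.323 in the heterozygote, with EpoR-null samples at 0.242 and 0.139. Both ratios overlapped between the groups. On the scale of log2(CPM + 0.5), the mean difference between EpoR-null and control samples was -0.25 for Tfap2b to Tfap2a, -0.44 for Snai2 to Snai1 and -0.73 for Sox9 to Sox10. The 2-sided exact permutation test gave p = 0.6, 0.4 and 0.4 for these 3 ratios, each 0.6 after Benjamini-Hochberg adjustment. With 2 samples against 3 the smallest p this 2-sided test allows is 0.2. Without the heterozygote the differences were -0.21 for Tfap2b to Tfap2a, -0.11 for Snai2 to Snai1 and -0.08 for Sox9 to Sox10.

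The paralogs of the specifier genes gave no call either. Of 12 paralogs, 7 were tested, with a median log2 fold change of 0.16, which turned to -0.04 without the heterozygote with 3 of 7 above 0, and a median log2 ratio of heterozygote to wild type of -0.30. Sox8, the remaining SoxE gene, was between 3.66 and 6.21 CPM in all samples, with the heterozygote at 4.32 CPM. Ets2 was at 33.0 and 40.1 CPM in the wild types, 22.2 CPM in the heterozygote and 33.9 and 37.2 CPM in the EpoR-null samples. Erbb2, the receptor that signals as a partner of Erbb3, was at 48.0 and 52.6 CPM in the wild types, 42.8 CPM in the heterozygote and 37.8 and 56.5 CPM in the EpoR-null samples. Of the pair, Erbb3 was therefore the one that was low in the heterozygote.

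Foxd1 was the only tested paralog below 0.5 of the lower wild type in the heterozygote, at 12.97 and 12.1 CPM in the wild types, 2.42 CPM in the heterozygote and 26.2 and 8.77 CPM in the EpoR-null samples. Foxd2 was between 0.821 and 2.22 CPM, Tfap2c between 1.82 and 4.79 CPM and Egfr between 1.34 and 2.53 CPM in all samples. Tfap2d, Tfap2e, Erbb4 and Foxd4 were too low to test, and Snai3 had no read, which allows a level of up to 0.155 CPM in the shallowest sample.

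Of 16 neural plate border genes tested, 1 was called lower in EpoR-null samples and none higher, against 3.84% and 0.929% of all tested genes. With so few genes this share is near the background. The gene was Gdf7, a roof plate ligand of the BMP family, at 1.53 and 2.69 CPM in the wild types, 2.12 CPM in the heterozygote and 0.505 and 0.387 CPM in the EpoR-null samples. Only the controls were above the filter of 1 CPM, so Gdf7 was tested through the group in which it was higher. Its EpoR-null values rest on 10 and 11 reads, against 37 and 113 in the wild types and 49 in the heterozygote. The groups did not overlap, and the log2 fold change of Gdf7 was -2.26 ± 0.52 SE (FDR = 0.00137), with the same value without the heterozygote (FDR = 0.0200). It lost its call without EpoR-null 2, at -2.07 (FDR = 0.0292, with p above its threshold). The list's median log2 fold change was -0.11.

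Of 14 genes of delamination and the epithelial to mesenchymal transition tested, 1 was called lower and none higher, again near the 3.84% and 0.929% of all tested genes. The gene was Cdh6, a cadherin of the dorsal neural tube and premigratory crest, at 27.3 and 21.7 CPM in the wild types, 22.7 CPM in the heterozygote and 12.5 and 9.61 CPM in the EpoR-null samples. Both EpoR-null samples were below all controls, and the log2 fold change was -1.11 ± 0.25 SE (FDR = 0.00131), or -1.15 without the heterozygote (FDR = 0.0201). The call was lost without wild type 1 (-1.01, FDR = 0.169) and when offsets for length and GC content were added (-0.69, FDR = 0.0846). The list's median was 0.12.

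No crest receptor or ligand was called among 15 tested, and the list's median log2 fold change was 0.10, or 0.04 without the heterozygote. Those of lowest FDR were Nrp2, a semaphorin receptor that guides crest streams, and Kitl, the ligand of the pigment cell receptor Kit. Nrp2 was at 95.6 and 84.0 CPM in the wild types, 75.6 CPM in the heterozygote and 70.8 and 54.5 CPM in the EpoR-null samples (log2 fold change -0.44, FDR = 0.159). The value was -0.64 and called without EpoR-null 1 (FDR = 0.00204), -0.27 without EpoR-null 2 (FDR = 0.371) and -0.14 with the length and GC offsets (FDR = 0.997). Kitl was between 22.6 and 34.0 CPM in controls and at 25.8 and 17.4 CPM in the EpoR-null samples (log2 fold change -0.40, FDR = 0.489), a difference of -0.71 without EpoR-null 1 (FDR = 0.0624), -0.14 without EpoR-null 2 (FDR = 0.844) and -0.13 with the offsets (FDR = 0.997).

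No other crest factor or derivative gene was called among 16 tested, with a median of 0.37, or 0.18 without the heterozygote. Crabp1, a retinoic acid binding protein of migrating crest and hindbrain, was at 516 and 674 CPM in the wild types, 607 CPM in the heterozygote and 772 and 1147 CPM in the EpoR-null samples. Its groups did not overlap, but its log2 fold change of 0.68 (FDR = 0.0451, unadjusted exact test p = 0.00314) missed the p threshold, and the gene was not called. The value was 0.94 and called without EpoR-null 1 (FDR = 2.9e-05), 0.36 without EpoR-null 2 (FDR = 0.206) and 0.18 with the length and GC offsets (FDR = 0.997).

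Likeness to Sox10 was measured as the root mean square distance between log2 CPM profiles, each centred on its mean over the 5 samples. As 5 samples, 1 of which stood apart, carry this measure, it is a description. Among 12702 other tested genes the closest were Meox1 at 0.170, 8430408G22Rik at 0.189, Cav2 at 0.190, Fam101a at 0.192 and Slc30a10 at 0.194, against a median of 1.01. Meox1 is a homeobox gene of the somites and a member of the somite list above. Of the other specifier genes, Snai1 ranked 26, Tfap2a 76, Ets1 84, Snai2 115, Erbb3 232, Tfap2b 237, Sox9 1084 and Foxd3 3249. Foxd3 was at a distance of 0.948, whereas Snai1 was at 0.293.

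The otic placode and notochord marker lists were measured in the same way. Whether their RNA came from those tissues or from the neural tube itself was not tested. Of 4 otic placode markers tested, Pax8 was called higher, at 0.909 and 0.881 CPM in the wild types, 0.605 CPM in the heterozygote and 2.53 and 2.54 CPM in the EpoR-null samples (log2 fold change 1.65, FDR = 0.00240), and lost its call without the heterozygote (1.496, FDR = 0.0614), without wild type 1 (1.74, FDR = 0.116) and without wild type 2 (1.73, FDR = 0.0598). Pax8 passed the filter of 1 CPM through the EpoR-null samples alone, the group in which it was called higher. It had 50 reads in EpoR-null 1 and 72 in EpoR-null 2. Its control values rest on fewer reads, 22 for wild type 1, 37 for wild type 2 and 14 for the heterozygote. The summed otic markers were at 10.3 to 31.4 CPM and the notochord markers at 53.9 to 85.0 CPM over the 5 samples, with no notochord marker called.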

How the data were processed

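The authors dissected neural tubes by hand and with enzyme, and sequenced polyA RNA. The deposited files hold counts, that is whole reads per gene and sample, that the authors made with Trimmomatic 0.32, TopHat2 2.1.0 and HTSeq 0.6.1 on mm9 per the labels. HTSeq's summary lines were left out of library sizes. Of all counted lines, 7.10 to 9.75% had no feature, 1.63 to 2.02% were ambiguous and 10.7 to 12.5% were not unique.

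All samples were fitted together in edgeR 4.0.16 (R 4.3.3) over genes above 1 CPM in at least 2 samples, with TMM scaling and tagwise dispersion. EpoR-null was compared with all 3 controls by the exact test, and a gene was called at p below 0.001 and Benjamini-Hochberg FDR below 0.05, as in the study. Standard errors and 95% intervals came from the same dispersions. The fit without the heterozygote and tests in DESeq2 1.42.0 and edgeR's quasi-likelihood model were alternatives, with other scaling, filters, offsets for length and GC content, and each sample left out. The script was tested on simulated data. Log2 ratios to wild type used CPM + 0.5. Transcript lengths came from GENCODE M21 and covered 99.1% of tested genes. Promoter windows matched by symbol for 4 specifier genes.

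Genes named are the 9 specifier genes, Epor, tested paralogs, called genes of each list or otherwise its 2 of lowest FDR, and the 5 most like Sox10, of which 1 list gene is not reported here; others are said to be chosen after their values were seen or are markers. The members and lists were chosen with earlier results of these data known. The closest 2 of 10 pairs of samples differed by a chi-square of 11.9 per degree of freedom, so no library was a copy. Intervals on counts cover counting error only.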

Additional observations from a re-analysis of the deposited data

How the results depend on the processing

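No specifier gene was called under any of the 17 alternatives. Adding a fold change above 1.5 to both thresholds can only remove calls, so that setting could not have differed. The quasi-likelihood test without a block called no gene at all, nor did the fit with the heterozygote as its own group. Their result is therefore not particular to the specifier genes. The number of genes called among all tested was 606 and ranged from 115 (without wild type 1) to 2296 (without EpoR-null 1) when a sample was left out. It was 0 with the quasi-likelihood test, where 3052 genes had an unadjusted p below 0.05, 0 with the heterozygote as a group of its own, 1028 with DESeq2, 186 with length and GC offsets and 928 at FDR alone. Of the called genes 80.5% were lower, against 55.9% without EpoR-null 1, 65.7% without EpoR-null 2, 96.5% without wild type 1, 95.9% without wild type 2, 94.5% without the heterozygote and 89.6% with no filter. The log2 fold change with a sample left out ranged from -0.34 to 1.104 for Tfap2b, -0.38 to 0.445 for Ets1, -0.090 to 0.88 for Snai2, -0.045 to 0.64 for Sox9 and -1.06 to 0.72 for Erbb3. With the heterozygote as its own group Ets1 was at -0.38 and Erbb3 at -0.39. The other 4 kept their direction, with ranges of 0.34 to 1.29 for Sox10, 0.07 to 1.19 for Foxd3, 0.36 to 1.02 for Tfap2a and 0.14 to 0.90 for Snai1. Without EpoR-null 2, Sox9 had an FDR of 0.0396 but missed the p threshold. With a sample left out, the difference between EpoR-null and control samples in the log2 ratio of Tfap2b to Tfap2a ranged from -0.65 to 0.15. Gdf7, Cdh6 and Pax8 were not called by the quasi-likelihood test (FDR = 0.0675, 0.0648 and 0.0677). DESeq2 gave no adjusted p for Snai2, Gdf7, Pax8 or Epor. The causes were not tested.

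Replicate numbers are shared between groups, but the labels do not say what they mark. The difference between numbers 1 and 2 correlated between wild type and EpoR-null across 12703 genes (Pearson 0.427), which are not independent. In a fit with the number as replicate block, 291 genes were called, 91.4% of them lower, and no specifier gene was. Erbb3 was at -0.015. Sox9 was the 1 specifier gene with an unadjusted p below 0.05, against 3729 of all 12703 tested genes, and had an FDR of 0.159. Cdh6 had an FDR of 0.0433 and was not called.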
